A study of Mus musculus with 6 samples.

Results

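Members of the Cyp4 family of cytochrome P450 genes, 10 in all, were followed in the livers of Trem2-deficient and wild-type mice: Cyp4a10, Cyp4a14, Cyp4a12a, Cyp4a12b, Cyp4a31, Cyp4a32, Cyp4f13, Cyp4f14, Cyp4f15 and Cyp4v3. They were selected on the fold changes between these same livers, as known from an earlier analysis of the counts, and taken by gene name, 10 of the 54532 genes of the count table, and all 10 were among the 13693 genes with enough reads to be tested. The study holds 6 bulk liver RNA libraries from male mice, 3 labelled KO (Trem2-deficient, replicates 4, 5 and 6) and 3 labelled WT (littermate wild-type, replicates 1, 2 and 3). Both groups began a high-fat diet at 8 weeks of age and stayed on it for 8 weeks, so that no library represents a lean liver. Which exons of Trem2 were removed is not stated, nor that each library is a separate mouse; p-values may then measure only the spread between these samples.

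CYP4 enzymes add a hydroxyl group to the far (omega) end of fatty acids and related lipids in the endoplasmic reticulum. The alcohol is oxidised further to a dicarboxylic acid, which peroxisomes then shorten, a side route of fat oxidation that gains weight when the liver is loaded with fatty acids. In mouse liver Cyp4a10 and Cyp4a14 are classic targets of PPARA, the nuclear receptor that senses fatty acids, whereas Cyp4a12a and Cyp4a12b are male-predominant and follow androgens and pulsatile growth hormone. Cyp4a12a makes 20-hydroxyeicosatetraenoic acid from arachidonic acid, and the Cyp4f enzymes inactivate leukotrienes and other lipid mediators.

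The 6 Cyp4a members lie side by side on chromosome 4 (mm10, 115299046 to 115621602) and are close copies, which bears on every count of them. Over their coding sequences, taken from the longest protein-coding GENCODE M21 transcript, Cyp4a12a and Cyp4a12b were 98.5% identical, with 23 differing bases among 1524. Cyp4a10 was 97.2% identical to Cyp4a32 and 96.6% to Cyp4a31, but 80.3% to Cyp4a12a and 76.8% to Cyp4a14. The first set of sequences shows the codon of the cysteine that holds the haem iron, in capitals, within 51 bases of each of the 4 genes the results turn on, read 5′ to 3′ on the coding strand of GRCm38. These 51 bases were the same in Cyp4a12a and Cyp4a12b, differed at 3 positions between Cyp4a12a and Cyp4a10, and at 6 positions between Cyp4a14 and Cyp4a10. The stretches fall within chr4:115529493-115532555, chr4:115487287-115489814, chr4:115328977-115331858 and chr4:115435231-115438081, and each crosses an exon junction.
Cyp4a10: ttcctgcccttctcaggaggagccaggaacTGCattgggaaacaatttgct
Cyp4a14: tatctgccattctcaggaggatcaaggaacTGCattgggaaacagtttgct
Cyp4a12a: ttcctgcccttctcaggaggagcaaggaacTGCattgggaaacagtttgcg
Cyp4a12b: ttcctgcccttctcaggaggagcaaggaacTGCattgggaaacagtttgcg

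The second set shows the 60 coding bases where near-identical members differ most, with the bases that are not shared by all genes shown in capitals. For the Cyp4a12 pair (within chr4:115326309-115326681 and chr4:115432561-115432934, plus strand) that was 4 of 60 bases. For Cyp4a10, Cyp4a31 and Cyp4a32 (chr4:115519640-115519699, chr4:115565020-115565079 and chr4:115602270-115602329, plus strand) it was 9 of 60, out of 77 differing positions in the coding sequence.
Cyp4a12a: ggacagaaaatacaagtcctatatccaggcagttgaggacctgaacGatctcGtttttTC
Cyp4a12b: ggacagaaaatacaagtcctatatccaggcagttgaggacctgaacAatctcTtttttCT
Cyp4a10: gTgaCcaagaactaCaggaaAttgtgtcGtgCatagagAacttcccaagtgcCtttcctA
Cyp4a31: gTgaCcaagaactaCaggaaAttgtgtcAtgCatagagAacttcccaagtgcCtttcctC
Cyp4a32: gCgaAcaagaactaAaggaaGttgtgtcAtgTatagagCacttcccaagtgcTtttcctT

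How far reads can tell these genes apart depends on such positions. Of all 50-base stretches of the Cyp4a12a transcript 48.9% also occur in another gene's transcript, in each case Cyp4a12b; of 100-base stretches 35.8% do. For Cyp4a32 the shares were 46.8% and 20.1%, for Cyp4a10 30.5% and 12.7%, and for Cyp4a31 21.8% and 8.22%. Cyp4a14 was nearly unique, with 0.245% of its 50-base and 0% of its 100-base stretches shared, and for the 3 Cyp4f members the 50-base shares were 2.45% to 2.72% and the 100-base shares 0%. The deposited files do not say how reads matching several genes were treated, and read length is not stated either, so the split of counts between Cyp4a12a and Cyp4a12b, and among Cyp4a10, Cyp4a31 and Cyp4a32, is uncertain, while their sums are less so.

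The libraries held 11591021 to 19653758 counts in the KO-labelled and 13866345 to 20399361 in the WT-labelled group. Trem2 itself did not separate the labels. Its counts were 9, 6 and 5 in KO replicates 4, 5 and 6. In WT replicates 1, 2 and 3 they were 7, 26 and 26. The library labelled WT replicate 1 lay inside the KO range, so each direction here is between libraries as labelled. Changes of the members and medians of the pathway and neighbour lists are given also without that library. For most single genes of the lists they are not. The share of mitochondrially encoded genes was 28%, 9.08% and 19.8% in KO replicates 4, 5 and 6, against 8.16%, 12.7% and 10.2% in WT replicates 1, 2 and 3. All 6 hepatocyte markers were present in every library. Summed, they reached 75165 to 77367 CPM (each library's counts scaled to a common total) in KO-labelled and 73944 to 99900 CPM in WT-labelled livers. Of these 6 markers 5 were fitted lower in the KO-labelled livers and 1 higher (median log2 change -0.38, and -0.34 without WT replicate 1). Their mean log2 CPM was 11.92, 12.17 and 12.08 in KO replicates 4, 5 and 6. It was higher in WT replicates 1, 2 and 3, at 12.81, 12.25 and 12.77. In edgeR 0 passed an adjusted p of 0.05, and the smallest p were those of Cps1 (log2 -1.70, SE 0.60) and Ass1 (log2 -0.75, SE 0.38). Alb, Apoa1, Serpina1c and Ttr had smaller log2 changes of -0.20, -0.50, -0.27 and 0.06 (SE 0.33, 0.31, 0.27 and 0.26). The gap in mean log2 CPM thus lay mostly in Cps1 and Ass1. Of 6 markers of the kidney proximal tubule, another site of Cyp4a12 expression, 5 were at 0 in every library, and the sum was 0.197 to 0.787 CPM in KO-labelled and 0.64 to 1.99 CPM in WT-labelled livers. Summed markers of Kupffer cells (124 to 203 against 78.1 to 111 CPM), sinusoidal endothelium (210 to 309 against 139 to 166 CPM) and stellate cells (155 to 299 against 132 to 149 CPM) were higher in all KO-labelled than in all WT-labelled libraries, each marker being detected throughout, and those of bile duct (56.8 to 74.9 against 39.9 to 78.4 CPM), neutrophils (3.71 to 7.88 against 4.67 to 9.72 CPM) and adipocytes (37.9 to 72.6 against 5.3 to 59.7 CPM) overlapped. The stellate difference lay mostly in Col3a1, with a mean of 106 CPM in KO-labelled and 21.9 CPM in WT-labelled livers. Des (log2 1.91, SE 0.48) and Pdgfrb (log2 0.66, SE 0.28) had positive changes too. Lrat, Dcn and Reln had log2 changes of only -0.03, -0.01 and 0.15 (SE 0.21, 0.31 and 0.25). The higher stellate sum therefore does not hold for each of its markers. The endothelial difference lay mostly in Eng, with a mean of 141 CPM in KO-labelled and 68.2 CPM in WT-labelled livers. All 6 endothelial markers were fitted higher, but Kdr and Lyve1 had log2 changes of only 0.02 and 0.23 (SE 0.26 and 0.45). In 1 of these 6 all KO-labelled values lay above the WT-labelled ones, beside 8.12% of all genes. The adipocyte sum was mostly Cfd, and the other 4 adipocyte markers were found almost only in KO replicate 5. Adipoq, which encodes adiponectin, had 2, 125 and 0 counts in KO replicates 4, 5 and 6, against 1, 0 and 0 in WT replicates 1, 2 and 3, and Plin1, a coat protein of fat droplets, had 5, 122 and 0 counts in KO replicates 4, 5 and 6, against 0, 0 and 1 in WT replicates 1, 2 and 3. Lep had 64 and Retn 32 counts in KO replicate 5 and at most 1 in any other library. Without KO replicate 5 the fitted log2 changes of the members, KO-labelled over WT-labelled, were 1.62 for Cyp4a10, 1.68 for Cyp4a14, 1.18 for Cyp4a31, -0.90 for Cyp4a12a, -2.60 for Cyp4a12b and -0.12 for Cyp4v3; those of the other 4 are given with each gene. The part of these cell types in the results was not tested, and in bulk tissue fewer hepatocytes and less RNA per hepatocyte cannot be told apart.

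Levels were compared between the genes by the authors' deposited FPKM (fragments scaled by gene length and library size), which accounts for gene length. Cyp4a10 had the highest mean in both groups, at 398 ± 266 FPKM (SD, n = 3) in KO-labelled and 163 ± 54.1 FPKM (SD, n = 3) in WT-labelled livers, rank 135 and rank 360 of all genes by group mean; its range in WT-labelled livers, 118 to 223 FPKM, overlapped with those of Cyp4a14 (65.3 to 125 FPKM), Cyp4v3 (66.8 to 134 FPKM) and Cyp4a12a (49.4 to 123 FPKM). In the KO-labelled livers it was followed by Cyp4a14, Cyp4f15 and Cyp4v3, whose ranges overlapped with their neighbours in that order. Below a gap came Cyp4a12a, Cyp4f14, Cyp4f13 and Cyp4a32, each overlapping its neighbour, and below another gap Cyp4a31 and Cyp4a12b at 4.52 ± 2.09 and 4.47 ± 1.01 FPKM (SD, n = 3). In the WT-labelled livers Cyp4f15, Cyp4v3, Cyp4a14, Cyp4f14 and Cyp4a12a formed a group between 82.6 and 100 FPKM on average that could not be ranked beyond its spread, and Cyp4a31 was last at 2.34 ± 0.892 FPKM (SD, n = 3). Cyp4a12b stood at 24.2 ± 6.29 FPKM (SD, n = 3) there, between Cyp4f13 and Cyp4a32 and overlapping with both. FPKM of Cyp4a32 rests on a gene model of 1536 bases that is nearly all coding sequence. That is shorter than the 2109 to 2601 bases of the other Cyp4a members, so the place of Cyp4a32 in the order carries that uncertainty. For Cyp4f13 the deposited length is 3330 bases, while its longest protein-coding transcript has 1752. Its place in the order is uncertain as well.

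**Figure D1:**
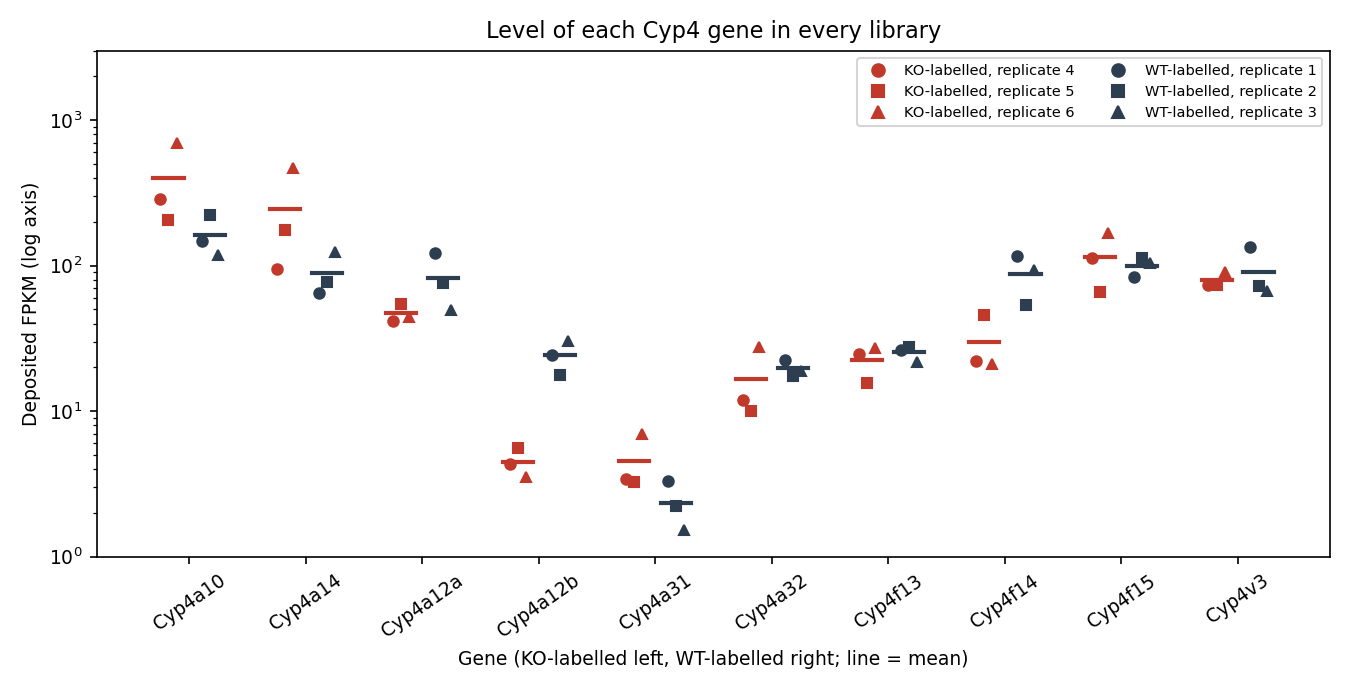
Deposited FPKM (log axis) of the 10 genes in each of the 6 libraries, KO-labelled to the left and WT-labelled to the right of each gene, with the group mean as a line. Cyp4a10 has the highest mean in both groups, although Cyp4a14, at 125, exceeds it, at 118, in WT replicate 3, and the 3 KO-labelled values of Cyp4a12b, from 3.55 to 5.55, sit below all WT-labelled ones, from 17.8 to 30.4.

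Between the groups 4 members had a positive and 6 a negative fitted change, KO-labelled over WT-labelled; over all genes the shares were 49.1% and 50.9%. The 10 genes were singled out with this contrast already known, so their differences describe these libraries and carry no test of their own. By edgeR's quasi-likelihood test over all genes 0 of the 10 members passed an adjusted p of 0.05, as did 0.0146% of the 13693 genes tested; 6 members had an unadjusted p under 0.05 (8.58% of all genes), 3 of them higher (5.37%) and 3 lower (3.21%). DESeq2 passed 2 members (0.997% of the 15545 genes it adjusted), namely Cyp4a12b and Cyp4f14, limma-voom passed 0 (0.0073% of genes), and limma-voom with sample quality weights passed 4 (29.7% of genes). In 1 member all KO-labelled values lay above the WT-labelled ones (8.12% of all genes) and in 2 members all lay below (5.73%). Of the members, 4 differed 2-fold or more in the fit, as did 8.59% of all genes: Cyp4a10 and Cyp4a14 were higher (5.89% of genes) and Cyp4a12b and Cyp4f14 lower (2.69%).

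Cyp4a10 and Cyp4a14, the PPARA targets, were higher on average in the KO-labelled livers, and highest in KO replicate 6. Cyp4a10 (ENSMUSG00000066072, chromosome 4, 115518264 to 115533649, plus strand) had 614, 449 and 1498 CPM in KO replicates 4, 5 and 6, against 301, 474 and 250 CPM in WT replicates 1, 2 and 3. KO replicate 6 stood far above the rest, and KO replicate 5 lay below WT replicate 2, so the groups overlapped. The fitted log2 fold change, KO-labelled over WT-labelled, was 1.32 (standard error, SE, 0.48), 1.24 without WT replicate 1 and 0.63 without KO replicate 6.

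Cyp4a14 (ENSMUSG00000028715, chromosome 4, 115486200 to 115496142, minus strand) had 250, 476 and 1236 CPM in KO replicates 4, 5 and 6, against 164, 201 and 327 CPM in WT replicates 1, 2 and 3. Again KO replicate 6 was highest, and KO replicate 4 lay below WT replicate 3. Its log2 change was 1.5 (SE 0.57), 1.31 without WT replicate 1, 1.89 without KO replicate 4 and 0.65 without KO replicate 6. Both genes varied more among the KO-labelled than among the WT-labelled livers, with coefficients of variation of 66.1% against 34.3% for Cyp4a10 and 79.1% against 37% for Cyp4a14.

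The level of Cyp4a14 relative to Cyp4a10 was not steady from liver to liver. The FPKM ratio was 0.33, 0.859 and 0.669 in KO replicates 4, 5 and 6, against 0.443, 0.344 and 1.06 in WT replicates 1, 2 and 3. The groups overlapped in this ratio, and the highest value was in a WT-labelled liver.

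Cyp4a31 and Cyp4a32, the close copies of Cyp4a10, were measured at much lower levels and did not share 1 direction. Cyp4a31 (ENSMUSG00000028712, chromosome 4, 115563649 to 115579015) had 8.63, 8.38 and 17.6 CPM in KO replicates 4, 5 and 6, against 7.98, 5.63 and 3.84 CPM in WT replicates 1, 2 and 3. All KO-labelled values were higher, but the lowest of them exceeded WT replicate 1 only slightly. Its log2 change was 0.99 (SE 0.39), 1.29 without WT replicate 1 and 0.55 without KO replicate 6, and it rested on 79 to 268 counts per library.

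Cyp4a32 (ENSMUSG00000063929, chromosome 4, 115600969 to 115621602) had 18.6, 15.9 and 43 CPM in KO replicates 4, 5 and 6, against 33.6, 27.1 and 29.3 CPM in WT replicates 1, 2 and 3. KO replicates 4 and 5 were below, and KO replicate 6 above, all WT-labelled livers. The log2 change of -0.22 (SE 0.37) was 0.04 without KO replicate 5, -0.13 without WT replicate 1 and -0.80 without KO replicate 6. Relative to Cyp4a10, with the same limit on the split of counts, Cyp4a32 was lower in every KO-labelled liver: the FPKM ratio was 0.0417, 0.0487 and 0.0394 in KO replicates 4, 5 and 6, against 0.153, 0.0787 and 0.161 in WT replicates 1, 2 and 3. Summed over Cyp4a10, Cyp4a31 and Cyp4a32, which removes the uncertain split between them, the levels were 641, 474 and 1559 CPM in KO replicates 4, 5 and 6, against 342, 506 and 283 CPM in WT replicates 1, 2 and 3, overlapping as for Cyp4a10 alone.

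**Figure D2:**
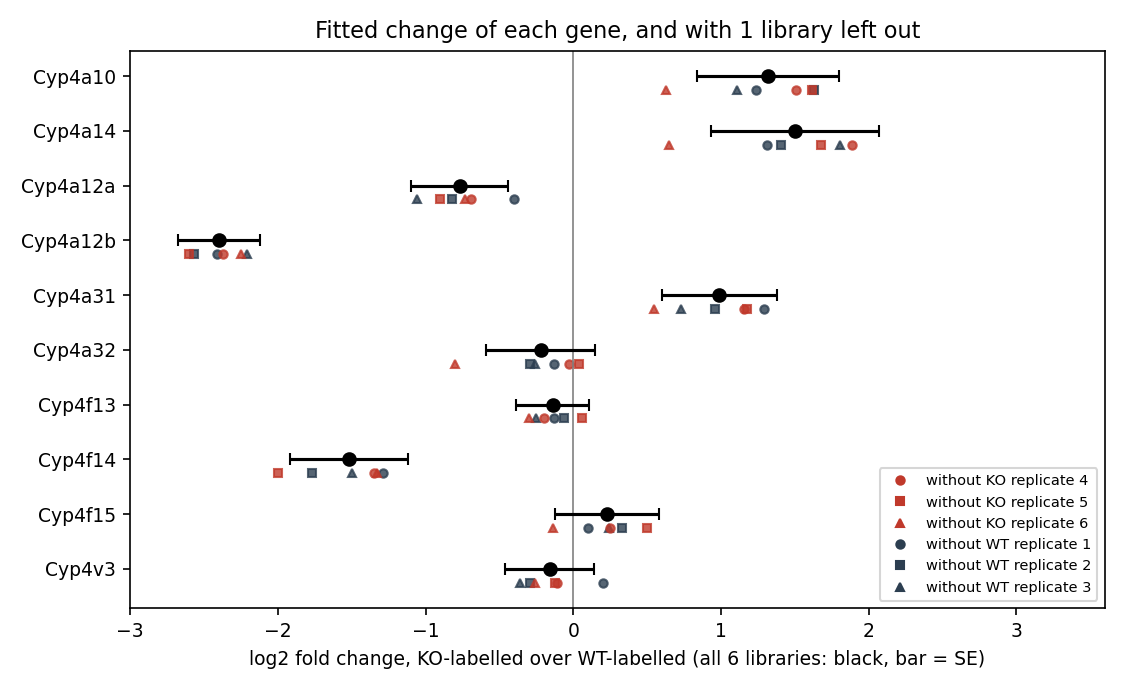
Fitted log2 fold change of each gene, KO-labelled over WT-labelled (black, bar = SE), with the values after leaving out each library in turn below it (colour and shape give the library). Without KO replicate 6, Cyp4a10 and Cyp4a14 move to 0.63 and 0.65, while Cyp4a12b stays between -2.60 and -2.21.

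Cyp4a12a and Cyp4a12b, the male-predominant genes, were lower in the KO-labelled livers, the second far more than the first. Cyp4a12a (ENSMUSG00000066071, chromosome 4, 115299046 to 115332815) had 103, 135 and 109 CPM in KO replicates 4, 5 and 6, against 288, 184 and 121 CPM in WT replicates 1, 2 and 3. The KO-labelled livers were close together, and only WT replicate 3 lay among them. The log2 change of -0.77 (SE 0.33) was -0.40 without WT replicate 1; that library moves it most.

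Cyp4a12b (ENSMUSG00000078597, chromosome 4, 115411624 to 115439034) had 10.4, 13.7 and 8.6 CPM in KO replicates 4, 5 and 6, against 56.3, 43 and 73.4 CPM in WT replicates 1, 2 and 3. The groups stood well apart, with the highest KO-labelled value under the lowest WT-labelled one. Its log2 change was -2.40 (SE 0.28), the largest of the 10 in size, a level 5.26-fold higher in WT. It was -2.41 without WT replicate 1 and between -2.60 and -2.21 with any 1 library left out.

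The proportion of the 2 copies, as far as the counts can split them, was lower in every KO-labelled liver. The FPKM ratio of Cyp4a12b to Cyp4a12a was 0.103, 0.102 and 0.0796 in KO replicates 4, 5 and 6, against 0.198, 0.236 and 0.615 in WT replicates 1, 2 and 3. The KO-labelled ratios were nearly equal, and WT replicate 3 was far above the others. Summed over both copies the level was 113, 149 and 118 CPM in KO replicates 4, 5 and 6, against 344, 227 and 194 CPM in WT replicates 1, 2 and 3, with a log2 ratio of the group means of -1.01 and no overlap. Of the summed FPKM of the 10 genes, Cyp4a12a made up 6.2%, 8.25% and 2.86% in KO replicates 4, 5 and 6. In WT replicates 1, 2 and 3 it made up 16.5%, 11.1% and 7.86%, so the groups overlapped. That sum was 676, 657 and 1559.5 FPKM in KO replicates 4, 5 and 6. In WT replicates 1, 2 and 3 the sum was 746, 679 and 628 FPKM. Cyp4a12a itself had 44.6 FPKM in KO replicate 6, above the 41.9 FPKM of KO replicate 4, although its share was smaller.

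**Figure D3:**
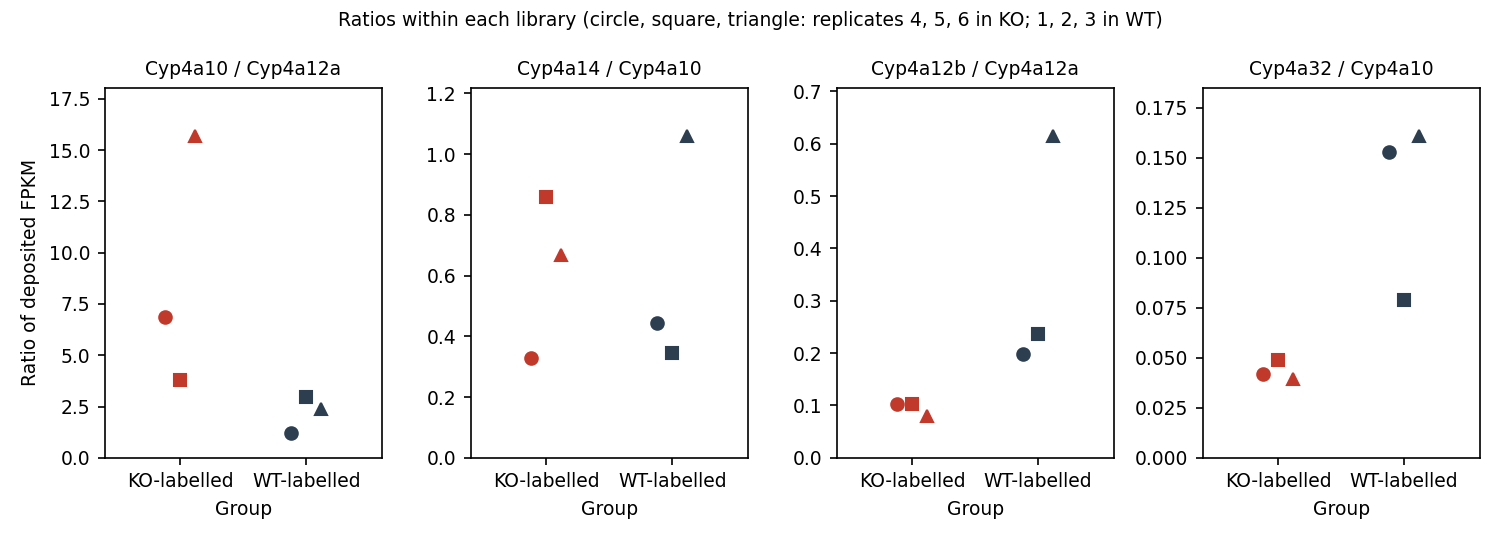
Ratio of deposited FPKM of 2 genes within each library, KO-labelled left and WT-labelled right, on linear axes from 0. Cyp4a12b over Cyp4a12a and Cyp4a32 over Cyp4a10 are lower in all 3 KO-labelled libraries, Cyp4a10 over Cyp4a12a is higher in all 3, and Cyp4a14 over Cyp4a10 overlaps.

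Cyp4a10 exceeded Cyp4a12a in every liver, and by more in the KO-labelled ones. The FPKM ratio was 6.85, 3.81 and 15.7 in KO replicates 4, 5 and 6, against 1.2, 2.95 and 2.38 in WT replicates 1, 2 and 3. The lowest KO-labelled ratio was above the highest WT-labelled one. Both genes were chosen with this contrast known, so their ratio carries no test. Ratios of Cyp4a31 to Cyp4a10, of Cyp4f14 to Cyp4f15 and of Cyp4f13 to Cyp4f15 overlapped between the groups. For Cyp4a14 over Cyp4a12a the ratios were 2.26, 3.27 and 10.5 in KO replicates 4, 5 and 6, against 0.531, 1.02 and 2.53 in WT replicates 1, 2 and 3, and here KO replicate 4 lay below WT replicate 3.

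Among the Cyp4f genes, which lie on chromosome 17, as Trem2 does, Cyp4f14 differed most. Cyp4f14 (ENSMUSG00000024292, 32905071 to 32917342, minus strand), a hydroxylase of leukotriene B4 and of vitamin E, had 53.9, 113 and 51.3 CPM in KO replicates 4, 5 and 6, against 271, 131 and 225 CPM in WT replicates 1, 2 and 3. All KO-labelled values were lower, KO replicate 5 and WT replicate 2 lying close together. The log2 change was -1.52 (SE 0.40), -1.29 without WT replicate 1 and -2.0 without KO replicate 5, a level 2.87-fold higher in WT.

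Cyp4f13, which lies next to Cyp4f14, and Cyp4f15 differed little on average. Cyp4f13 (ENSMUSG00000024055, 32924688 to 32947402) had 83, 53.5 and 92.1 CPM in KO replicates 4, 5 and 6, against 84.9, 92.8 and 73.6 CPM in WT replicates 1, 2 and 3. Cyp4f15 (ENSMUSG00000073424, 32685627 to 32703352) had 261, 155 and 386 CPM in KO replicates 4, 5 and 6, against 184, 260 and 239 CPM in WT replicates 1, 2 and 3. In both genes KO replicate 5 was the lowest of all 6 livers and the groups overlapped. The log2 changes were -0.14 (SE 0.25) for Cyp4f13 and 0.23 (SE 0.35) for Cyp4f15; without WT replicate 1 they were -0.13 and 0.10, without KO replicate 5 they were 0.06 and 0.50, and without KO replicate 6 that of Cyp4f15 was -0.14. At these SEs a moderate change in either direction was not detectable.

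Cyp4f13 and Cyp4f14 are adjacent on the minus strand, so their promoters are shown as a pair that differed in outcome. Each runs from 250 bases before to 50 after the start (RefSeq, GRCm38.p6), Cyp4f14 at chr17:32917307-32917606, 1 of its 4 listed starts, and Cyp4f13 at chr17:32947312-32947611. Motifs found on either strand are in capitals.
Cyp4f14: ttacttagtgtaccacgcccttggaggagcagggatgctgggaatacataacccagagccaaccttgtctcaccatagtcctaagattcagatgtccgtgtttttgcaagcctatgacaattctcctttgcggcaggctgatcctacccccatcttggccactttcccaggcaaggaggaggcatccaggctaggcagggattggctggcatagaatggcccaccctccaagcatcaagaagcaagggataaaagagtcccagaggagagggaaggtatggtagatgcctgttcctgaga
Cyp4f13: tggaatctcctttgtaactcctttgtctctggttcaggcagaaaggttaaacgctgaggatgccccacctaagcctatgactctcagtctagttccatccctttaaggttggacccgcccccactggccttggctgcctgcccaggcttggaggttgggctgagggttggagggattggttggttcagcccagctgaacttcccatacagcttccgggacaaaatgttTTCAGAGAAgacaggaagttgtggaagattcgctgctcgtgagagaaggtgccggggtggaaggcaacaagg

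Promoters were at hand for 5 of the 10 members, Cyp4a32, Cyp4f13, Cyp4f14, Cyp4f15 and Cyp4v3. The motif of a PPARA response element, searched on both strands as a direct repeat of AGGNCA with 1 base (N) between, was in 0 of these windows and in 0.381% of all 32851 promoter windows. The STAT motif TTCNNNGAA, which reads the same on both strands, was in Cyp4f13 alone, starting 22 bases before the start site, and in 8.3% of all windows. The TATA motif TATAAA was in Cyp4a32 alone, starting 113 bases before the start site on the opposite strand, and in 13.6% of all windows. No window held more than 1 of the 3 motifs, and a motif missing from so short a window says only that its letters are not there.

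Cyp4v3 (ENSMUSG00000079057, chromosome 8, 45304944 to 45333216), whose human counterpart CYP4V2 is mutated in Bietti crystalline dystrophy of the retina, overlapped between the groups. It had 284, 288 and 348 CPM in KO replicates 4, 5 and 6, against 493, 278 and 256 CPM in WT replicates 1, 2 and 3. WT replicate 1 was the highest of all, and the other 5 livers lay between 256 and 348 CPM. The log2 change was -0.16 (SE 0.30), and without WT replicate 1 it was 0.20.

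**Figure D4:**
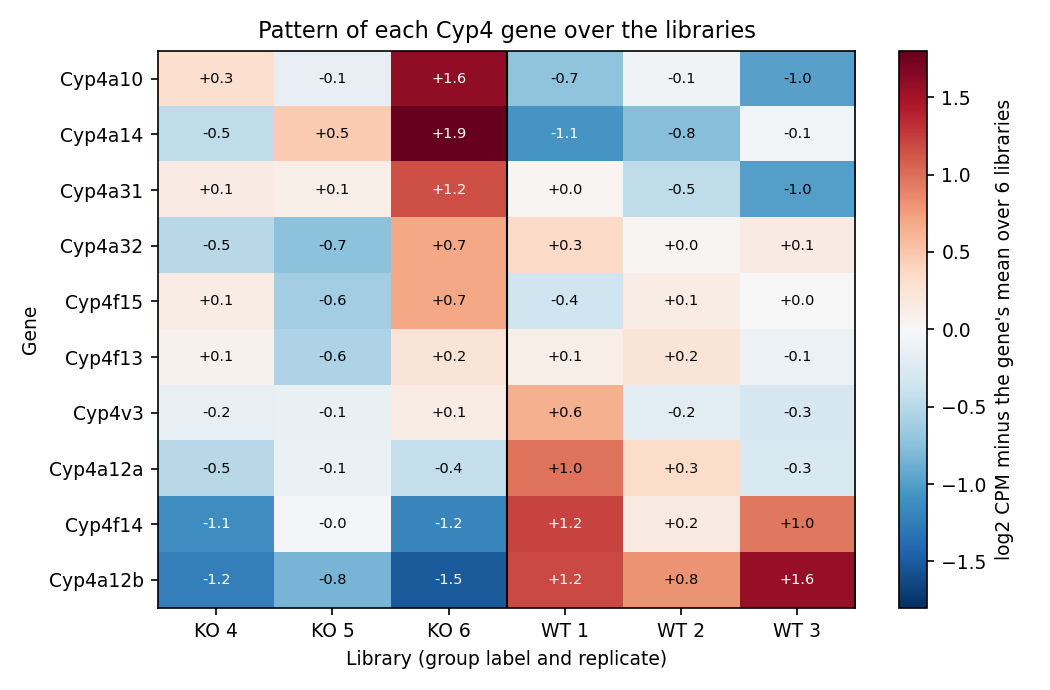
log2 CPM of each gene minus its mean over the 6 libraries (colour and number), with KO-labelled libraries left and WT-labelled libraries right of the line. Cyp4a10, Cyp4a14, Cyp4a31, Cyp4a32 and Cyp4f15 are highest in KO replicate 6. Cyp4a12b is low in all KO-labelled and high in all WT-labelled libraries. Cyp4f14 is lowest in KO replicates 4 and 6 and highest in WT replicates 1 and 3.

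Likeness of pattern over the 6 livers was measured as the root mean square difference in log2 CPM, each gene centred on its own mean. Among 12538 genes with a mean of at least 1 CPM, the pattern of Cyp4a10 was nearest to those of Vsig10 (0.18), Arntl (0.20), a core factor of the circadian clock, and Sesn2 (0.24), a stress-induced regulator of nutrient signalling, where the median gene was at 0.89. Arntl had 3.27, 2.55 and 7.75 CPM in KO replicates 4, 5 and 6, against 1.68, 2.18 and 1.75 CPM in WT replicates 1, 2 and 3, so that it too was highest in KO replicate 6. Cyp4a31 was at 0.41 from Cyp4a10, Cyp4a14 at 0.64 and Cyp4a12a at 1.17. The nearest genes to Cyp4a14 were the little-known Gm6135 (0.36), Gm21885 (0.44) and 1700061I17Rik (0.44). Gm21885 had 0.999, 1.44 and 2.04 CPM in KO replicates 4, 5 and 6. In WT replicates 1, 2 and 3 it had 0.436, 0.704 and 0.827 CPM. It met the mean of 1 CPM only through the KO-labelled livers. Vsig10 and 1700061I17Rik were also near that limit in WT-labelled livers, at 0.681 to 1.47 and 0.748 to 1.09 CPM.

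The male-predominant genes had other neighbours. Cyp4a12a was nearest to Tsc22d2 (0.07), Susd4 (0.11) and Ugt2b35 (0.11), a glucuronosyltransferase, the median gene being at 0.61. Susd4 is also on the list of male-biased liver genes; it had 13.8, 16.7 and 16.3 CPM in KO replicates 4, 5 and 6, against 34.6, 22.8 and 14.9 CPM in WT replicates 1, 2 and 3. Cyp4a12b was nearest to Foxq1 (0.31), a forkhead transcription factor, Gpx6 (0.43) and Gm12718 (0.46), and Cyp4f14 was at 0.51, closer than Cyp4a12a at 0.99. Gpx6 and Gm12718 were near the floor in KO-labelled livers, at 0.454 to 0.722 and 0.591 to 1.3 CPM. In WT-labelled livers they had 1.47 to 4.04 and 1.47 to 4.77 CPM. Gpx6 met the mean of 1 CPM only through the WT-labelled livers. For such genes the direction they share with the member is not independent of that filter. These likenesses are over 6 libraries that also differ in depth and mitochondrial share, and carry no test.

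The surroundings of these genes in the pathway are given by lists chosen with earlier results of these data known. Over all genes tested 8.58% had an unadjusted p under 0.05 in edgeR, and the count of each list below stands beside that share. Of 10 other Cyp4 genes only 3 had enough reads, Cyp4b1 (log2 0.29, SE 0.22), Cyp4f16 (log2 0.38, SE 0.42) and Cyp4f17 (log2 -0.30, SE 0.34), none past the test and 0 at an unadjusted p under 0.05 in edgeR (median 0.29; 0.20 without WT replicate 1, and 0.15 to 0.35 over all libraries left out in turn). Cyp4f18, the leukotriene B4 hydroxylase of neutrophils, had 12, 11 and 12 counts in KO replicates 4, 5 and 6, against 10, 6 and 8 in WT replicates 1, 2 and 3, and 4 genes (Cyp4a29, Cyp4a30b, Cyp4f37 and Cyp4f40) were at 0 counts throughout.

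Genes that supply electrons to the Cyp4 enzymes or carry their products further were fitted in both directions. Of 25 omega-oxidation partners and peroxisomal enzymes 12 were fitted higher and 13 lower, with a median log2 change of 0.00 against -0.01 over all genes and none past the test in edgeR; 3 had an unadjusted p under 0.05. The 2 with the smallest p were Acaa1b, a peroxisomal thiolase, at 2800 ± 465 CPM in KO-labelled and 1426 ± 197 CPM in WT-labelled livers (SD, n = 3 each; log2 0.97, SE 0.26), and Acot4, a peroxisomal thioesterase for succinyl-CoA and dicarboxylic acids (log2 0.99, SE 0.31). Values of 3 further steps, chosen after they were seen, were -0.39 (SE 0.41) for Por, the electron donor of microsomal P450 enzymes, 0.51 (SE 0.26) for Aldh3a2, the fatty aldehyde dehydrogenase, and 0.19 (SE 0.58) for Ehhadh, all log2 changes. Without WT replicate 1 the list's median was 0.26, and without WT replicate 2 it was -0.11.

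Ppara, the receptor that drives Cyp4a10 and Cyp4a14, averaged 34.1 ± 1.68 CPM in KO-labelled and 34.2 ± 3.92 CPM in WT-labelled livers (SD, n = 3 each; log2 0.00, SE 0.18). A list of 18 genes held PPARA, its cofactors and related genes, among them the other PPAR receptors Ppard and Pparg, Nr1h3 and Fabp1. Of these 18, 6 were fitted higher and 12 lower (median -0.04, also without WT replicate 1, and -0.11 to 0.04 over all libraries left out in turn). None passed the test in edgeR and 1 had an unadjusted p under 0.05. The smallest p were those of Med1 (log2 -0.52, SE 0.22) and Pparg (log2 0.43, SE 0.23). Of 31 other PPARA targets 23 were fitted higher and 8 lower (median 0.27; between 0.05 without WT replicate 2 and 0.54 without WT replicate 1, so that 1 library moves it either way), 0 past the test in edgeR and 9 at an unadjusted p under 0.05. In 10 of these 31 all KO-labelled values lay above the WT-labelled ones, beside 8.12% of all genes. Ucp2, a mitochondrial carrier, and Cd36, a fatty acid transporter, had the smallest p (log2 1.42, SE 0.21 and log2 1.67, SE 0.29). Cpt1a, the gate of mitochondrial oxidation, chosen after its value was seen, was at -0.06 (SE 0.27), and at 0.10 without WT replicate 1. The mean log2 CPM of this list was 6.99, 7.23 and 7.51 in KO replicates 4, 5 and 6, against 7.07, 6.32 and 6.72 in WT replicates 1, 2 and 3, highest in the liver where Cyp4a10 and Cyp4a14 were highest but not low in WT replicate 1, where Cyp4a14 was lowest.

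Male-biased liver genes other than the Cyp4 genes were mostly fitted lower. Of 21 listed 19 were tested, of which 18 were fitted lower and 1 higher. The median was -1.39, and it was -0.81 without WT replicate 1 and -1.62 without KO replicate 5. In edgeR 0 passed the test and 13 had an unadjusted p under 0.05, beside 8.58% of all genes. Beside 5.73% of all genes, all KO-labelled values lay below the WT-labelled ones in 11 of these 19. Their mean log2 CPM was 6.34, 7.15 and 6.32 in KO replicates 4, 5 and 6, against 8.91, 7.53 and 7.69 in WT replicates 1, 2 and 3, with KO replicate 5 the highest of its group, as for Cyp4a12b and Cyp4f14. The 2 with the smallest p were Hsd3b5, a steroid dehydrogenase (log2 -3.73, SE 0.61), and Selenbp2, a selenium-binding protein (log2 -3.16, SE 0.58). Of 22 female-biased genes 14 were tested, 12 fitted higher and 2 lower (median 0.83; 0.64 without WT replicate 1, 0.54 without KO replicate 6 and 1.27 without WT replicate 3; 5 at an unadjusted p under 0.05), and 1 passed, the P450 Cyp2b9, at 113 ± 44.6 CPM in KO-labelled and 5.57 ± 1.09 CPM in WT-labelled livers (SD, n = 3 each; log2 4.34, SE 0.37, edgeR adjusted p = 0.0298, higher in all 3). Without WT replicate 1, 0 genes passed in edgeR; genes near 0 in WT-labelled livers enter such a median only through the KO-labelled ones.

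Of 22 genes of growth hormone and steroid signalling 8 were fitted higher and 14 lower (median -0.20; -0.11 without WT replicate 1 and -0.25 without KO replicate 6), none past the test and 6 at an unadjusted p under 0.05. The smallest p were those of the liver-enriched transcription factor Onecut1 (log2 -2.08, SE 0.47) and of the nuclear receptor coregulator Trim24 (log2 1.10, SE 0.33). Chosen after their values were seen, the growth hormone receptor Ghr had 339 ± 102 CPM in KO-labelled and 464 ± 81.6 CPM in WT-labelled livers (SD, n = 3 each; log2 -0.45, SE 0.29), and its signal transducer Stat5b a log2 change of 0.08 (SE 0.19). Of 22 eicosanoid and leukotriene genes 17 were tested, 9 higher and 8 lower (median 0.04; 0.20 without WT replicate 1 and -0.15 without WT replicate 2), none past the test and 7 at an unadjusted p under 0.05, led by Ltc4s, leukotriene C4 synthase, with 23, 14 and 14 counts in KO replicates 4, 5 and 6, against 4, 3 and 2 in WT replicates 1, 2 and 3, and Cyp2c38, a P450 (log2 1.32, SE 0.34).

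**Figure D5:**
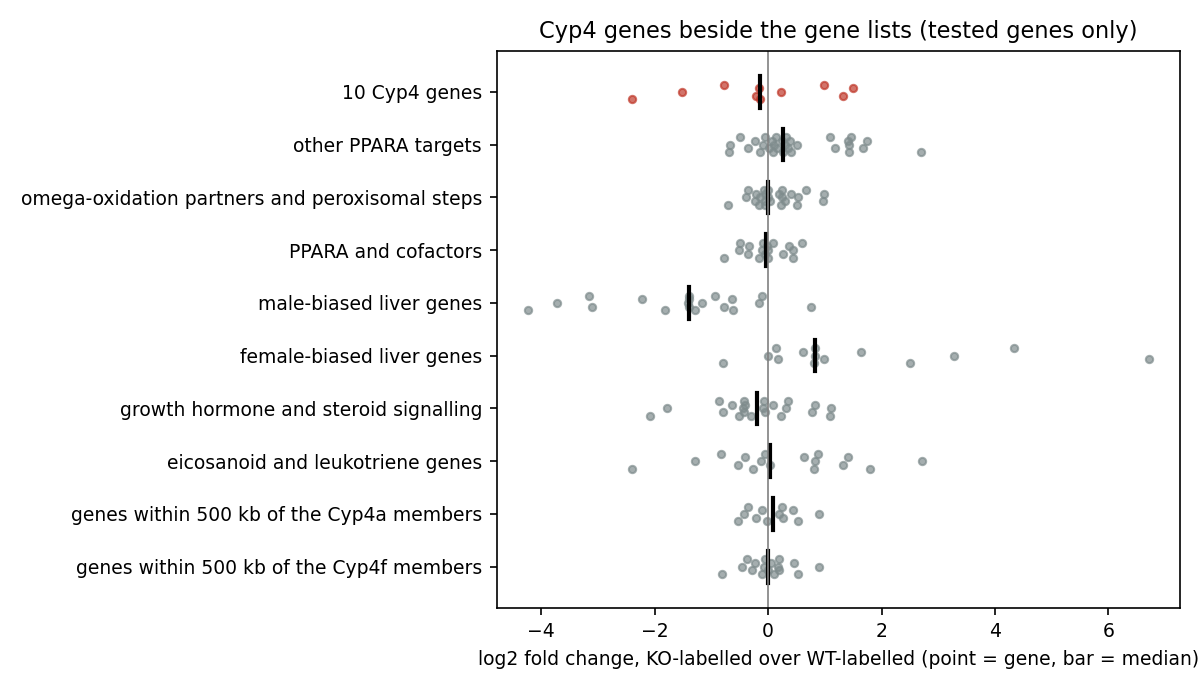
log2 fold change, KO-labelled over WT-labelled, of each tested gene (point) with the median (bar), for the 10 Cyp4 genes (top, red) and for the gene lists (grey). The 10 genes spread from -2.40 to 1.5, the male-biased list sits to the left with a median of -1.39, and both sets of chromosomal neighbours centre near 0.

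Genes next to the family on the chromosome were fitted in both directions. Within 500 kb of the Cyp4a members 12 other genes were tested, 6 higher and 6 lower (median 0.09; -0.01 without WT replicate 1 and up to 0.10 with another library left out), none past the test and 0 at an unadjusted p under 0.05 in edgeR. Within 500 kb of the Cyp4f members 17 were tested, 9 higher and 8 lower (median 0.00; -0.20 without WT replicate 1 and 0.25 without WT replicate 2), again none past the test and 0 at an unadjusted p under 0.05. The smallest p were those of Cmpk1 (log2 0.44, SE 0.19) and Tal1 (log2 0.89, SE 0.58) beside the Cyp4a genes and of Akap8l (log2 0.89, SE 0.59) and Gm17115 (log2 -0.82, SE 0.62) beside the Cyp4f genes.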

How the data were processed

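Liver RNA of 6 libraries was read from the authors' deposited tables of whole read counts per gene and of FPKM. Named in the submitters' processing notes are mm10, featureCounts 1.5.0-p3, HISAT2 2.0.5 and DESeq2 1.16.1, without roles or settings; strandedness and the handling of multiply matching reads are not given in the sources used here. Total RNA was made into Illumina TruSeq libraries, per the labels' protocols. The authors' FPKM divide counts by the deposited gene length and by 1 library size per sample, 0.846 to 1.14 times the column total; they were used for levels between genes. Counts were tested with edgeR 4.0.16 (R 4.3.3; TMM, filterByExpr, quasi-likelihood test, Benjamini-Hochberg adjustment over 13693 genes, threshold 0.05); the biological coefficient of variation was 34.7%. The SE was computed by dividing the size of the fitted change by the root of its F statistic, and log2 CPM used a prior count of 2. DESeq2 1.42.0 and limma 3.58.1 were alternatives, with other scalings and filters, FPKM with pseudocounts of 1 and 0.1, and each library left out. The fits were checked on simulated counts. Libraries differed beyond sampling noise in every pair, within and between groups (lowest chi-square per degree of freedom 46.9, KO replicates 4 and 6). KO replicate 5 was at 232 and 158 from KO replicates 4 and 6. From WT replicates 1, 2 and 3 it was at 119, 97.5 and 59.4, so the pairs did not follow the labels throughout. That measure also rises with depth. Groups come from the sample titles.

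The members, the lists and the alternatives were chosen with earlier results of these data known. Named were the 10 members, Trem2, of each list the genes past the test (up to 4) or else the 2 with the smallest p, and the 3 genes nearest in pattern to Cyp4a10, Cyp4a14, Cyp4a12a and Cyp4a12b; other genes are said to be chosen after their values were seen, as Ppara and Cyp4f18 were. Marker lists covered hepatocytes, Kupffer cells, sinusoidal endothelium, stellate cells, bile duct, neutrophils, adipocytes and kidney proximal tubule. Coding sequences and shared stretches come from GENCODE M21 (GRCm38), whose positions match the count table, and were aligned with Biopython 1.88; all 10 members matched. Promoters are RefSeq's (GRCm38.p6), matched for 5 of 10.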

Additional observations from a re-analysis of the deposited data

How the results depend on the processing

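No member passed an adjusted p of 0.05 with the other scalings, limma-voom, FPKM or any library left out; 1 passed without a filter, 2 with DESeq2 and 4 with limma-voom and sample quality weights, an alternative chosen after seeing the data. Over all genes the counts past the threshold, 2 higher and 0 lower, were 1 higher with library size alone and with limma-voom, 39 higher and 22 lower without a filter, 98 and 57 with DESeq2, and 2070 and 1993 with quality weights. With 1 library left out they ranged from 0 to 1 higher, and were 0 without WT replicate 1 and KO replicate 4 together, also chosen after seeing the data. Those counts come from fewer libraries.

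The direction of Cyp4a10, Cyp4a14, Cyp4a31, Cyp4a12a, Cyp4a12b and Cyp4f14 was the same in all 16 alternatives. The sign of the 4 small changes was not: Cyp4a32 was 0.04 without KO replicate 5, 0.06 without WT replicate 1 and KO replicate 4 and 0.16 with quality weights; Cyp4f13 was 0.06 without KO replicate 5 and 0.19 with quality weights; Cyp4f15 was -0.14 without KO replicate 6; Cyp4v3 was 0.20 without WT replicate 1, 0.25 without it and KO replicate 4 and 0.26 with quality weights. With quality weights Cyp4a10 was 2.06, Cyp4a31 1.78, Cyp4a12b -2.89 and Cyp4a12a -0.29, and without KO replicate 6 Cyp4a32 was -0.80. The cause was not tested. Other scalings moved the median of all genes by under 0.1. No paired analysis was possible because the labels give each library its own number. With 3 libraries a group, small changes were not detectable.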
